A study of Mus musculus with 4 samples.

Results

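The 9 genes H2-Aa, H2-Ab1, H2-Eb1, H2-DMa, H2-DMb1, H2-Oa, H2-Ob, Cd74 and Ciita carry out or direct peptide presentation on major histocompatibility complex (MHC) class II molecules in the mouse. They were taken by name from the 32285 genes listed for 4 single-cell libraries of DLA tumors, and UMIs (unique molecular identifiers, 1 per captured RNA molecule) of all 9 were found. DLA is a transplanted mouse line that the labels call a lymphoma, here grown in Swiss albino mice after injection into the abdominal cavity. Control 1 and Control 2 came from mice that the labels call untreated and the supplement calls vehicle controls, so their exact handling is not settled. Treated 1 and Treated 2 came from mice given SP11, an inhibitor of the chaperone HSP90, by mouth at 30 mg/kg for 17 days. No genetic change or age is given for either group, and nothing in the sources says how many animals stand behind a library. P-values between the groups thus measure only the spread between these 2 libraries per group. Those between cell classes measure the spread of class sums around a fit with library as a term, estimated over all classes together. The question was which cells of the tumor carry the class II machinery, and how much of its signal in the tumour cells is no more than is seen for RNA made by other cells.

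Class II molecules present peptides from engulfed proteins to CD4 T cells and are typical of B cells, dendritic cells and macrophages, the professional antigen-presenting cells. H2-Aa with H2-Ab1 forms the I-A molecule and H2-Eb1 is the beta chain of I-E. Cd74, the invariant chain, escorts new class II molecules to endosomes, where H2-DM (H2-DMa with H2-DMb1) exchanges the invariant chain's remnant for a peptide and H2-DO (H2-Oa with H2-Ob) restrains H2-DM. Ciita is the coactivator that switches the family on through a shared promoter module, in which the X box is bound by the RFX complex and the Y box by NF-Y.

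The shared module is shown first because the 9 genes are read as one family below. In mm10 (GRCm38), 7 of them lie on chromosome 17 within the MHC, from H2-Oa (chr17:34092340-34095234) through H2-DMa (34119541-34139101), H2-DMb1 (34153072-34160230), H2-Ob (34238903-34254414), H2-Ab1 (34257689-34269419) and H2-Aa (34282744-34287823) to H2-Eb1 (34305867-34316674); Ciita lies on chromosome 16 (10480059-10528418), by the GENCODE annotation of mm10. RefSeq promoter windows (GRCm38.p6) were held for 6 of the 9 genes, and H2-Ab1, Cd74 and Ciita have none here. In the 250 bases before the start, on both strands, the Y-box letters ATTGG and the pair of an X-like GNAAC with ATTGG starting 20 to 40 bases after it were searched, a pattern chosen after these promoters had been seen. Among all 32851 windows of the same length, 33.8% hold ATTGG and 2.98% hold the pair. The pair is present before H2-Aa, H2-Eb1, H2-Ob, H2-Oa and H2-DMb1, with 30 to 33 bases between the starts of its motifs, and it is in neither of the 2 windows of H2-DMa. Stretches before the start of 3 genes with the pair and of the first H2-DMa start follow, 5′ to 3′ on the strand of the gene, with both motifs in capitals. They span chr17:34287824-34287973 (minus strand) for H2-Aa, chr17:34305717-34305866 for H2-Eb1, chr17:34238755-34238902 for H2-Ob and chr17:34122642-34122821 for H2-DMa (plus strand).
H2-Aa: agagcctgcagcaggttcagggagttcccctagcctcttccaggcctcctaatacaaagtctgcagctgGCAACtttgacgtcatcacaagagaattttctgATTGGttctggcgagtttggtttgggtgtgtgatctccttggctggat
H2-Eb1: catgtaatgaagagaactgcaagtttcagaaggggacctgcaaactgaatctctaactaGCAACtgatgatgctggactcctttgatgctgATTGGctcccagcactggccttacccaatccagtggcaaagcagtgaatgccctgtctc
H2-Ob: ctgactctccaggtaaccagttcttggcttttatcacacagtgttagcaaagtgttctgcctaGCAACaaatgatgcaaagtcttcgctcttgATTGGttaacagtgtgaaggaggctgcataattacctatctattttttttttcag
H2-DMa: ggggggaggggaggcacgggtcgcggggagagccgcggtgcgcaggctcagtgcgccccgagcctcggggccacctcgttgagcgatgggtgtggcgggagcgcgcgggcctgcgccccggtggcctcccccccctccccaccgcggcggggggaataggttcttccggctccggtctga
H2-DMa is shown because its level behaved apart from the other members in the tumour cells, and its stretch has no capitals. That stretch begins just past the start of Brd2, a gene on the other strand. The window of the second H2-DMa start (34125518), not shown, holds 1 ATTGG but no pair. The letters missing from the shown stretch say nothing about which factors act at H2-DMa, and no link to its level was tested. H2-DMa also overlaps Brd2 (chr17:34112023-34122634, minus strand) and 3 further annotated genes, H2-Eb1 overlaps the antisense gene Gm20513, H2-Oa the antisense gene BC051537 and Ciita the gene Dexi on the other strand, so reads in the overlaps are uncertain. H2-DMb1 has the close relative H2-DMb2, between which reads can be split.

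Of 5332 barcodes, 4404 had at least 200 genes and at most 10% mitochondrial UMIs and were kept, which left 916 and 566 control cells and 1831 and 1091 SP11 cells, with 9574906 to 13024964 UMIs per library. Cells were sorted by marker UMIs that include no class II gene. Tumour-gated cells (3046) carried keratins (Krt8, Krt18, Krt19), B cells (281) Cd79a, Cd79b or Ms4a1, T cells (104) T-cell receptor or CD3 genes, Fn1-type myeloid cells (258) Fn1 or Vcan, Ccl2-type myeloid cells (79) Ccl2, Saa3 or Spp1, and dendritic-like cells (30) Irf8 with Cst3 and few UMIs of the other sets. The labels call the line a lymphoma, while 91.8%, 92.9%, 62.3% and 49.4% of the kept cells from Control 1 to Treated 2 passed the keratin gate. Tumour-gated cells held 4157 to 7457 CPM (counts per 1000000 UMIs of a class in a library) of a 5-gene epithelial list, 1.04 to 33.4 CPM of 8 B-cell genes and 0.852 to 6.11 CPM of 8 T-cell genes, levels that the gate itself sets in part and that are no check of the label. B cells were gated only in the SP11 libraries, 146 and 135. Summed over the 18 and 10 dendritic-like cells of Treated 1 and Treated 2, 9 and 8 of 10 dendritic markers had a UMI, the gate genes Irf8 and Cst3 among them. By the same count over more cells, B cells had 3 and 5 and Fn1-type cells 6 and 3. The single dendritic-like cell of each control library had UMIs of 2 of 10, the number that the gate itself needs, and enters no test. Pairs of libraries shared 54 to 215 kept barcode sequences, 9.54 to 20.2% of the smaller library, and barcodes shared between libraries fell in the same class in 32.1 to 79.6% of cases, where the class sizes alone give 33.5 to 85.5%.

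Dendritic-like cells, B cells and both myeloid classes carried the class II genes, at levels 2 orders of magnitude above the tumour cells. Summed over the 9 genes, dendritic-like cells held 37253 and 40875 CPM in Treated 1 and Treated 2, and B cells 24560 and 23422 CPM. Ccl2-type cells held 17094 and 14527 CPM in Control 1 and Control 2, against 12913 and 11496 CPM in Treated 1 and Treated 2. Fn1-type cells held 9045 and 8308 CPM in the SP11 libraries, and the 5 Fn1-type cells of each control library 18361 and 23277 CPM. Tumour-gated cells held 45.4, 32.9, 138 and 76.8 CPM from Control 1 to Treated 2. Within the SP11 libraries the order dendritic-like, B, Ccl2-type, Fn1-type held in each library, and the tumour cells stood last among the classes gated for this comparison.

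**Figure D1:**
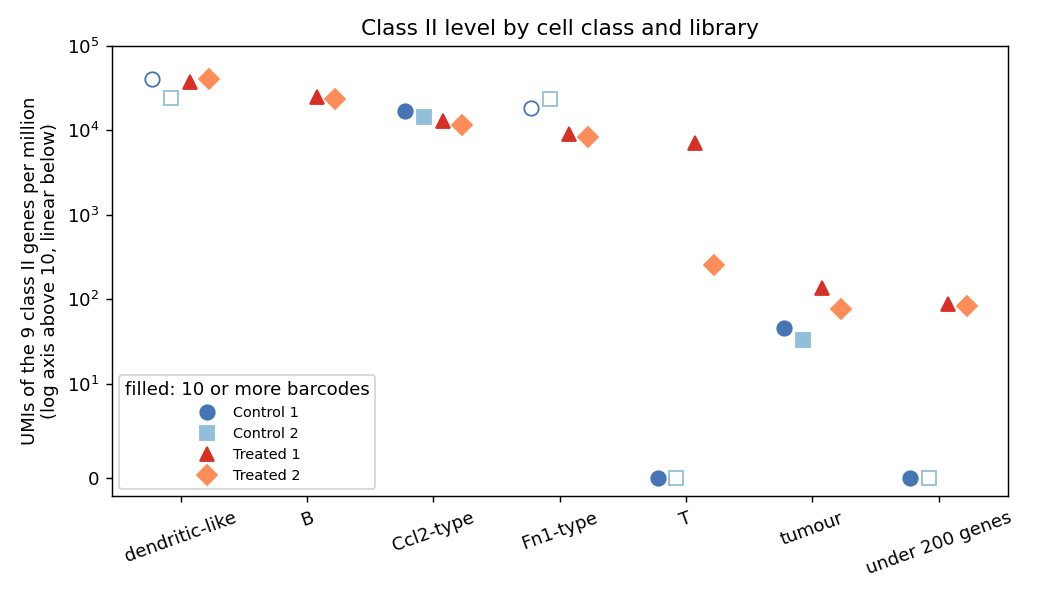
CPM of the 9 class II genes in each cell class (horizontal) and library (colour and shape), on an axis that is logarithmic above 10 and linear below, where open symbols stand for fewer than 10 barcodes. The 4 antigen-presenting classes lie between 8308 and 41083 CPM, the highest being the single dendritic-like cell of Control 1, and the tumour-gated cells between 32.9 and 138 CPM.

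Tumour-gated cells, which were many and deep, still held a visible part of all class II UMIs. In the SP11 libraries B cells held 31.4% and 44.5% of the class II UMIs of the kept cells, Fn1-type cells 12.3% and 11.9%, dendritic-like cells 6.89% and 7.82% and Ccl2-type cells 4.32% and 7.20%. Tumour-gated cells held 12.6% and 6.58%, although they made up 62.3% and 49.4% of the kept cells. In the controls, where no B cell was gated, Ccl2-type cells held 26.9% and 27.7%, being 1.75% and 1.77% of the cells, and tumour-gated cells held 22.0% in each. Cells that passed no gate held another 11.6 to 35.8%.

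All 7 members that passed the filter on low counts were higher in B, dendritic-like, Fn1-type and Ccl2-type cells than in tumour cells of the same libraries. Higher calls made up 32.8%, 22.2%, 36.7% and 30.9% of the 2644 genes tested in these 4 comparisons, and the median log2 difference of the 7 members was 7.37, 8.86, 6.73 and 7.55 against -0.04, -0.32, -0.03 and -0.23 over all genes. For Cd74 the log2 difference was 8.93 (SE 0.42, adjusted p = 2.8e-30) in B cells, 8.86 (SE 0.42) in dendritic-like, 8.03 (SE 0.38) in Ccl2-type and 6.73 (SE 0.39) in Fn1-type cells. H2-DMa showed the smallest difference of the 7 in each of these classes, 4.79 (SE 0.24), 5.37 (SE 0.43), 4.69 (SE 0.29) and 4.68 (SE 0.23) in the same order.

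The 3 chain genes were highest in dendritic-like cells. H2-Ab1 stood at 5078 and 7410 CPM in dendritic-like cells of Treated 1 and Treated 2, at 1527 and 1761 CPM in B cells, at 2036 and 1740 CPM in Ccl2-type and at 1337 and 1433 CPM in Fn1-type cells. H2-Aa followed with 5123 and 7450, 2119 and 2375, 1788 and 1387, and 1502 and 1295 CPM in that order. Dendritic-like values lay above all others for both genes. Against B cells, H2-Ab1 was higher in dendritic-like cells by 1.57 on the log2 scale (SE 0.29, adjusted p = 2.9e-05) and H2-Aa by 1.13 (SE 0.30, adjusted p = 0.0053). These calls rest on both libraries, since without Treated 1 neither was called (adjusted p = 0.214 for H2-Ab1 and 0.500 for H2-Aa) and without Treated 2 H2-Aa was not (0.121). With DESeq2 the H2-Aa call was lost (adjusted p = 0.569), and with stricter gates, which need 1 more marker UMI, the adjusted p was 0.628 for H2-Aa and 0.0664 for H2-Ab1. H2-Eb1, the I-E beta chain, had a mean of 2614 CPM (SD 1092) in dendritic-like cells of the SP11 libraries. Its difference from B cells there was not called (log2 difference 0.49, SE 0.29, edgeR adjusted p = 0.315). In the myeloid classes H2-Eb1 was lower than in B cells. Its level was 1508 and 1436 CPM in B cells, 411 and 405 CPM in Fn1-type and 546 and 584 CPM in Ccl2-type cells of the SP11 libraries. The log2 difference from B cells was -2.14 (SE 0.28, adjusted p = 2.3e-09) in Fn1-type and -1.20 (SE 0.29, adjusted p = 6.4e-04) in Ccl2-type cells, the latter with an adjusted p of 0.426 in DESeq2, 0.103 without Treated 1 and 0.270 without Treated 2.

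Cd74 (chr18:60803848-60812652) was the most abundant member in every antigen-presenting class, and B cells had most of it for each chain UMI. Cd74 stood at 18788 and 17275 CPM in B cells and at 23637 and 20796 CPM in dendritic-like cells. Fn1-type cells held 5133 and 4545 CPM, lower than B cells (log2 difference -2.20, SE 0.41, adjusted p = 7.4e-06, but 0.253 in DESeq2). Per 100 UMIs of the 3 chain genes, B cells had 365 and 310 Cd74 UMIs, Ccl2-type cells 179 and 191, Fn1-type cells 158 and 145 and dendritic-like cells 196 and 114 in Treated 1 and Treated 2. The exact 95% intervals of the B-cell ratios, 337 to 395 and 292 to 330, lay above those of the other 3 classes (highest bound 228), with counting error only. In control Ccl2-type cells the ratio was 241 (198 to 293) and 291 (229 to 371), above both SP11 values, with intervals that overlap for Control 1. For these comparisons against B cells, 3 of 7 members were called higher in dendritic-like cells, where 6.32% of all genes were. In Fn1-type cells 3 were lower, H2-Aa among them (log2 difference -0.99, SE 0.29, adjusted p = 0.0048, not called without either SP11 library), against 17.8% of genes. In Ccl2-type cells 1 was higher and 1 lower, against 16.4% and 16.8% of genes.

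**Figure D2:**
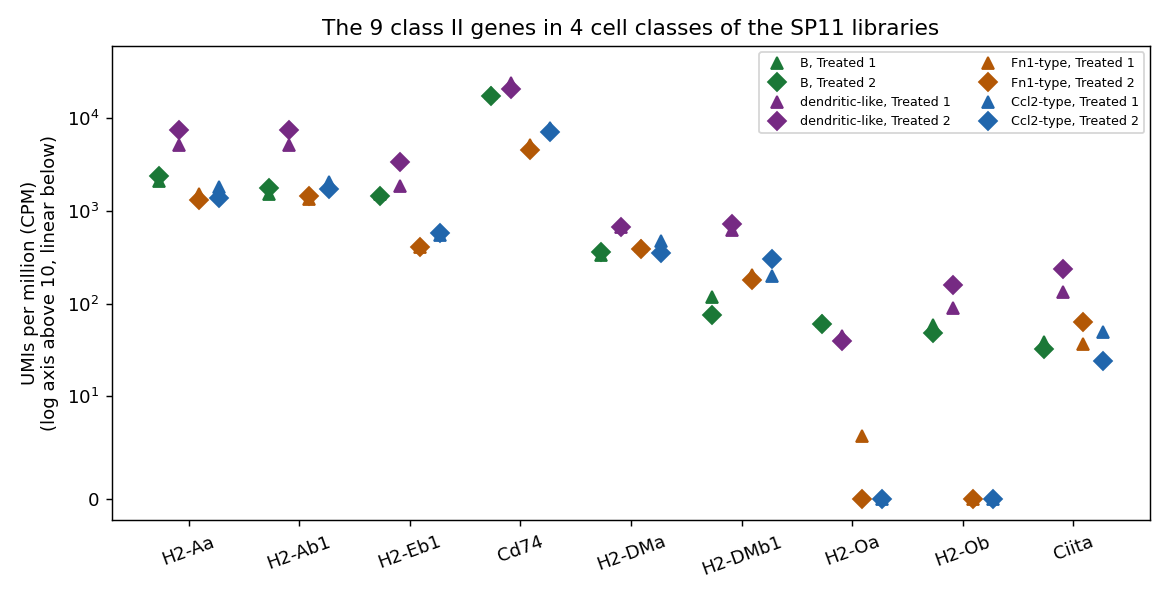
CPM of each of the 9 genes in B, dendritic-like, Fn1-type and Ccl2-type cells (colours) of Treated 1 (triangles) and Treated 2 (diamonds), on an axis that is logarithmic above 10 and linear below. H2-Oa and H2-Ob stand apart, with 39.8 to 159 CPM in B and dendritic-like cells and 0 to 6.13 CPM in the myeloid classes.

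The genes of the peptide editor H2-DM differed between classes in unlike ways. H2-DMa lay between 338 and 677 CPM in all 4 antigen-presenting classes of the SP11 libraries and was called different from B cells in none of the 3 other such classes. H2-DMb1 ranged more widely, from 117 and 76.2 CPM in B cells to 202 and 181 in Fn1-type, 199 and 304 in Ccl2-type and 629 and 717 CPM in dendritic-like cells. It was higher than in B cells by 2.48 (SE 0.50, adjusted p = 1.5e-04) in dendritic-like and by 1.34 (SE 0.46, adjusted p = 0.018) in Ccl2-type cells on the log2 scale. H2-DMb2, the relative with which it may share reads, moved the other way and was lower than in B cells in Fn1-type (log2 difference -4.12, SE 0.61) and Ccl2-type cells (-4.00, SE 0.75). With stricter gates the H2-DMb1 differences were no longer called (adjusted p = 0.524 and 0.0997), nor were they without Treated 1 (0.0551 and 0.0915) or without Treated 2 (0.389 and 0.563).

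H2-Oa and H2-Ob, the chains of H2-DO, reached their highest levels in B and dendritic-like cells among the 4 antigen-presenting classes. Of 49 H2-Oa UMIs in the SP11 libraries, B cells held 25 and dendritic-like cells 2, and of 53 H2-Ob UMIs they held 21 and 6. Of the rest, tumour-gated cells held 5 and 8, mixed keratin barcodes 4 and 10, neutrophil barcodes 4 and 2, hemoglobin-rich barcodes 3 and 0, Fn1-type cells 1 and 0 and cells that passed no gate 5 and 6. B cells held 10 and 15 UMIs of H2-Oa (65.0 and 60.2 CPM) and 9 and 12 of H2-Ob (58.5 and 48.1 CPM). Dendritic-like cells held 44.9 and 39.8 CPM of H2-Oa and 89.9 and 159 CPM of H2-Ob, from 2 and 6 UMIs in all. Ccl2-type cells of all 4 libraries had 0 UMIs of either gene. Fn1-type cells had 1 UMI of H2-Oa and 0 of H2-Ob in the SP11 libraries, so the H2-Ob level was at least 6.09-fold higher in B cells, taking 3 counts over both libraries as the floor. Against Ccl2-type cells the same bound is 2.13-fold for H2-Ob and 2.53-fold for H2-Oa. The level of H2-Oa in B cells over that in Fn1-type cells was 21.8 (exact interval of the counts 3.56 to 893). Neither gene passed the filter of the comparison across classes, and neither was tested there.

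Ciita was scarce everywhere, with 86 UMIs in the SP11 libraries and 3 in the controls. Dendritic-like cells had 135 and 239 CPM from 3 and 6 UMIs, B cells 39.0 and 32.1 CPM, Fn1-type cells 36.8 and 63.9 CPM and Ccl2-type cells 49.7 and 24.3 CPM. Its level differed from that in B cells in none of the 3 classes at an adjusted p under 0.05, and at so few counts a difference between B and myeloid cells was not detectable.

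Within the classes the spread of class II between single cells differed. Each of the 281 B cells had a class II UMI, with medians of 25 and 41 UMIs per cell and lows of 2 and 3. Fn1-type cells of the SP11 libraries were uneven, with medians of 5 and 7.5, highs of 106 and 109, 12.3% and 21.6% of cells at 20 UMIs or more and 19 and 9 cells at 0. In the controls the 10 Fn1-type cells ranged from 6 to 116 UMIs, with medians of 40 and 55 and 80.0% of cells at 20 or more in each library. These 10 cells held more of the Ccl2-type list (9516 and 12990 CPM) than of the Fn1-type list (6046 and 4430 CPM), the reverse of the SP11 libraries (6979 and 7354 against 13313 and 15358 CPM), so they go by their gate only and are not set against the SP11 cells. These Fn1-type cells were too few for a test between the groups. Depth per cell differed as well, with a median of 1790 and 2713 UMIs in control and 982 and 1671 UMIs in SP11 Fn1-type cells.

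T cells, which should lack class II, held little of it apart from a single barcode. All 11 control T cells had 0 class II UMIs. In Treated 2, 78 T cells held 19 class II UMIs, a level of 256 CPM. In Treated 1, 15 T cells held 71, of which 70 were in 1 barcode with 52 UMIs of the dendritic gate gene Cst3 and only 2 of the T-cell gate. Without that barcode the other 14 T cells held 1 class II UMI. T cells were lower than B cells in 6 of 7 members, H2-DMa by the least (log2 difference -2.29, SE 0.47), where 8.06% of genes were lower. Without Treated 2 the H2-DMa difference was not called (adjusted p = 0.530). For H2-DMb1, with 0 UMIs in T cells, the level in B cells was at least 2.57-fold higher. Against tumour cells, 5 of 7 members were higher in T cells, where 23.8% of genes were, but without Treated 1, which holds that barcode, 1 was called, with at least 500 genes per cell 0 and with stricter gates 1. Neutrophil barcodes of the SP11 libraries held 11048 and 4421 CPM and hemoglobin-rich barcodes 3984 and 1867 CPM of class II, against 0 UMIs in the few such barcodes of the controls. The same neutrophil barcodes held 4306 and 6759 CPM of the 8 B-cell genes, and the part of other cells' RNA in their class II level was not tested.

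With SP11, class II RNA rose in the whole suspension. All 9 members rose over all kept cells, where 9.11% of 12149 genes rose, with a median log2 change of 2.45 against -0.01 over all genes. Cd74 went from 124 and 85.1 CPM without to 625 and 652 CPM with SP11 (log2 change 2.45, SE 0.17, adjusted p = 7.2e-09). H2-Eb1 rose by 2.63 (SE 0.17), H2-Ab1 and H2-Aa by 2.23 each (SE 0.16 and 0.15), H2-DMb1 by 1.24 (SE 0.21) and H2-DMa by 0.94 (SE 0.14). The groups did not overlap for any of these, but with 2 libraries per group that carries little weight, and its share over all genes was not counted. The 3 rarest members had few control UMIs, and their ratios of SP11 to control were 12.1 for H2-Oa (exact interval of the counts 3.91 to 60.8), 19.7 for H2-Ob (5.18 to 167) and 21.3 for Ciita (7.04 to 105). More class II cells and more class II RNA per cell cannot be told apart in such sums. Cells outside the tumour gate numbered 75 and 40 in Control 1 and Control 2, against 691 and 552 in Treated 1 and Treated 2.

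Inside the Ccl2-type class, the only antigen-presenting class with at least 10 cells in every library, 0 of 6 members tested changed with SP11. There 1.35% of 517 genes were called by edgeR, 45 genes but no member had an unadjusted p under 0.05, DESeq2 called 0 members as well, and the members' median log2 change was 0.04. Cd74 had 11578 and 10307 CPM without SP11, against 7823 and 7104 CPM with it. The groups did not overlap, and the share of all genes without overlap was not counted. The log2 change of Cd74 was -0.32 (SE 0.23, adjusted p = 0.664) with an approximate 95% interval from -0.77 to 0.13. With 10 to 29 cells per library, a change within that interval was not detectable. Hbb-bs, a hemoglobin gene of red cells, rose by 7.82 (SE 0.56) in the same cells, and its part in the result was not tested. The log2 change of Cd74 in Ccl2-type cells was lower than that in tumour-gated cells by a test of the difference (-1.89, SE 0.41, adjusted p = 0.0090), where 0.037% of 10812 genes were lower, but DESeq2 did not call it and neither did the fit without Control 1 or without Control 2.

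In tumour-gated cells, 4 of 6 members tested rose with SP11, against 1.03% of 11388 genes. H2-Ab1 had 2.92 and 3.41 CPM without SP11, against 17.1 and 10.5 CPM with it, a log2 change of 2.02 (SE 0.27, adjusted p = 1.0e-04). H2-Aa had 4.68 and 2.88 against 15.2 and 10.5 CPM (log2 change 1.65, SE 0.26, adjusted p = 8.3e-04). H2-Eb1 had 1.56 and 1.06 against 6.02 and 3.20 CPM (log2 change 1.69, SE 0.38, adjusted p = 0.022). Cd74 had 22.4 and 12.5 against 80.6 and 37.6 CPM (log2 change 1.66, SE 0.27, adjusted p = 0.0014). The groups did not overlap for these 4 genes, which carries little weight with 2 libraries per group, and the share of all genes without overlap was not counted. H2-DMa and H2-DMb1 did not pass the test, and H2-DMa had a log2 change of 0.12 (SE 0.17, adjusted p = 0.829). For H2-DMb1 it was 0.42 (SE 0.48, adjusted p = 0.769). DESeq2 kept H2-Aa and H2-Ab1 and lost H2-Eb1 (adjusted p = 0.156) and Cd74 (0.647), and without Scrublet doublets H2-Aa (0.0874) and H2-Eb1 (0.188) were lost. Without barcodes that another library also held, H2-Eb1 was lost (0.0695), and it was lost without Treated 1 (0.281). A selection made after the data had been seen kept tumour-gated cells without a UMI of the B, T, Fn1-type, Ccl2-type and neutrophil marker sets. In these cells H2-Aa, H2-Ab1 and Cd74 were still called, with log2 changes of 1.82, 2.28 and 1.90. The dendritic gate genes and the hemoglobin genes were not part of that selection. The hemoglobin gene Hbb-bs was found in 99.7% and 100% of all tumour-gated cells of Treated 1 and Treated 2.

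Several genes that other cells make rose in the same tumour-gated cells. Igkc, the immunoglobulin kappa constant gene of B cells, went from 2 and 1 UMIs without to 175 and 152 UMIs with SP11 (log2 change 6.33, SE 0.40). The lysozyme gene Lyz2 of myeloid cells rose by 2.59 (SE 0.32) and the hemoglobin gene Hbb-bs of red cells by 4.92 (SE 0.29). Fn1 of myeloid cells rose by 1.52 (SE 0.26), less than the 4 class II genes in its point estimate. Of the neutrophil genes, S100a9 rose by 3.15 (SE 0.26, adjusted p = 1.1e-07), and S100a8 did not pass the test (log2 change 0.15, SE 0.15, adjusted p = 0.721). S100a8 was already found in 27.8% and 39.5% of the tumour-gated cells of Control 1 and Control 2. The B-cell genes Cd79a, Cd79b and Ighm and the hemoglobin gene Hba-a1 rose as well. The part of other cells' RNA in the class II change of tumour cells was not tested as a term of the fit.

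**Figure D3:**
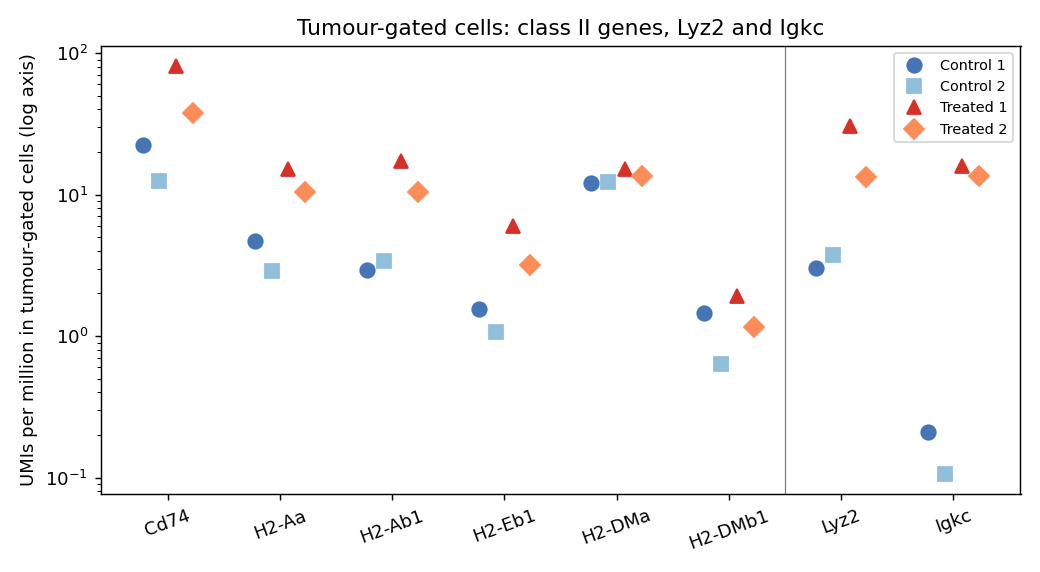
CPM in tumour-gated cells on a log axis for 6 class II genes (left of the line) and for Lyz2 and Igkc (right), by library. The SP11 libraries lie above the controls for Cd74, H2-Aa, H2-Ab1, H2-Eb1, Lyz2 and Igkc, while H2-DMa stays between 12.1 and 15.1 CPM.

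A few tumour-gated cells held much of the signal. Cells with at least 5 class II UMIs were 5 of 841 and 1 of 526 in the controls and 44 of 1140 and 13 of 539 in the SP11 libraries. They were 0.595%, 0.190%, 3.86% and 2.41% of the tumour-gated cells and held 47.0%, 23.0%, 54.4% and 37.7% of the class II UMIs. Per cell they had 6.20, 19.0, 7.02 and 5.46 UMIs of Lyz2, Tyrobp, Fcer1g and Ptprc, genes of myeloid and other white blood cells, against 0.0851 to 0.707 in the cells with fewer class II UMIs. From Control 1 to Treated 2, 60%, 100%, 88.6% and 100% of them had a UMI of the B, T, Fn1-type, Ccl2-type or neutrophil marker sets. Of the cells without class II UMIs, 38.1%, 54.7%, 56.2% and 72.5% had one. In the SP11 libraries cells with at least 5 had median depths of 9992 and 23033 UMIs, against 8126 and 18952 in cells with 0.

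**Figure D4:**
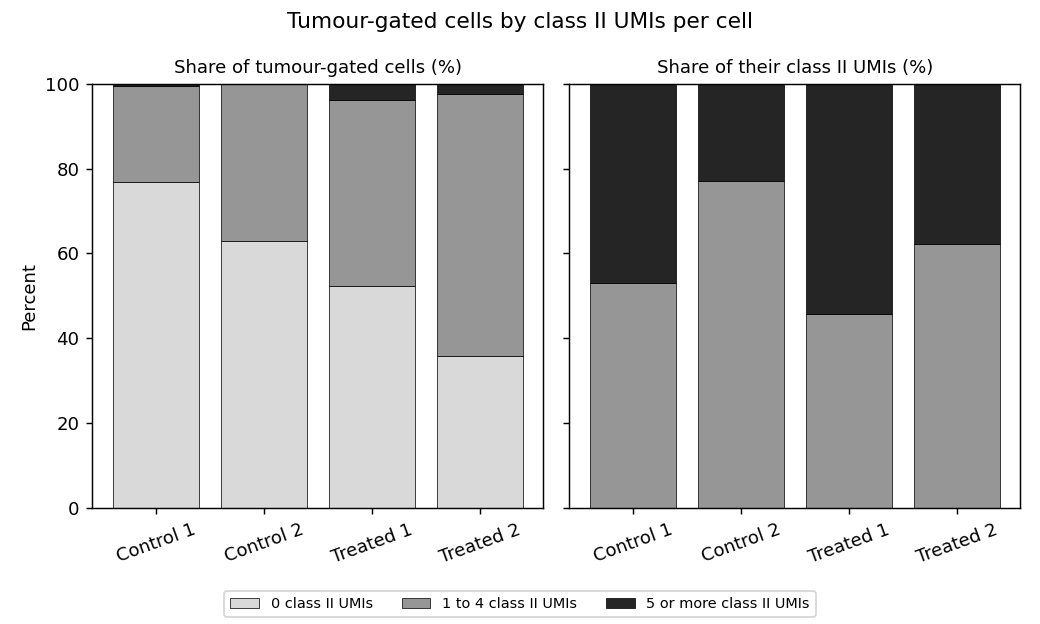
Shares of tumour-gated cells (left) and of their class II UMIs (right) in cells with 0, 1 to 4 and 5 or more class II UMIs, as stacked bars in percent per library. Cells with 5 or more are at most 3.86% of the cells and hold 23.0 to 54.4% of the UMIs.

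Barcodes that passed the keratin limit and also held markers of another class were kept apart as mixed, and their class II level varied with the other class's markers. In Treated 1, 43 keratin barcodes with B-cell markers held a median of 20 class II UMIs, 37 with Fn1 or Vcan a median of 5, 9 with T-cell markers a median of 1 and 5 with Ccl2-type markers a median of 2, where the Ccl2-type cells had 7. In Treated 2 the medians were 43 in 13 barcodes with B-cell markers, 30 in 7 with Fn1 or Vcan, above the 7.5 of the Fn1-type cells, and 0 in 3 with T-cell markers. There were 131 and 45 mixed barcodes in the SP11 libraries and 5 and 4 in the controls.

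Relative to the other cells of the same library, the level of Cd74 in tumour cells was close to that of Lyz2 in 3 of 4 libraries. Other members exceeded it in some libraries by intervals of counting error only. The cells outside the gate here include the mixed keratin barcodes. Cd74 in tumour-gated cells stood at 0.303%, 0.331%, 2.27% and 0.827% of its CPM outside the gate, from Control 1 to Treated 2. Lyz2 stood at 0.192%, 0.460%, 2.20% and 0.856% in the same libraries. The ratio of these percentages was 1.57 (approximate 95% counting interval 1.04 to 2.38), 0.72 (0.474 to 1.09), 1.03 (0.900 to 1.17) and 0.97 (0.798 to 1.17). Only in Control 1 did the interval exclude 1. All intervals of these ratios take UMIs as independent and do not cover the spread between cells. In Control 1, 4 of 841 tumour-gated cells held 128 of the 215 Cd74 UMIs, so no difference from Lyz2 is read from that interval. Igkc stood at 1.12% and 0.463% in the SP11 libraries, and the Cd74 percentage was 2.03 (1.72 to 2.40) and 1.79 (1.48 to 2.16) times as high. H2-Ab1 exceeded Lyz2 in both SP11 libraries, by ratios of 1.46 (1.21 to 1.77) and 1.57 (1.23 to 2.02), and H2-Eb1 in neither (0.975 and 0.882). H2-Aa exceeded it in Treated 2, by 1.41 (1.10 to 1.81), and H2-DMb1 in Control 1, by 3.51 (1.66 to 7.41), and Treated 2, by 1.86 (1.03 to 3.36). H2-Ob and Ciita exceeded it in Treated 1, by 2.95 (1.24 to 7.02) and 2.10 (1.005 to 4.41), from 7 and 9 UMIs in tumour-gated cells. UMIs of H2-Ab1 were concentrated as well, with 119 of 188 in 42 of 1140 tumour-gated cells of Treated 1. In Treated 2, 58 of 118 were in 12 of 539 cells. No difference from Lyz2 is read from the intervals of these members either. Without the mixed barcodes in the denominator, the mean SP11 percentage was 0.651 for Cd74 and 0.670 for Lyz2, in place of 1.55 and 1.53. Which of the genes made elsewhere is the better measure of background was not tested, and Lyz2 and Igkc come from different cells.

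H2-DMa stood apart. Its level in tumour-gated cells was 3.87%, 7.09%, 11.5% and 8.16% of that in the other cells, 20.1 (11.9 to 34.0), 15.4 (9.0 to 26.4), 5.23 (4.18 to 6.55) and 9.54 (7.38 to 12.3) times the Lyz2 percentage. It was 12.1, 12.2, 15.1 and 13.4 CPM from Control 1 to Treated 2. Without the mixed keratin barcodes among the other cells, the mean SP11 percentage of H2-DMa was 4.66, in place of 9.85. The gene was spread over many cells, with 12.4%, 19.0%, 13.1% and 22.6% of tumour-gated cells holding a UMI and never more than 4 in a cell. Cells with at least 5 UMIs of the other 8 members held 6.90%, 2.61%, 13.9% and 3.31% of its UMIs. The same kind of cells held 68.9%, 44.4%, 59.9% and 46.6% of the H2-Aa UMIs. Per 100 chain UMIs, tumour-gated cells had 132 and 167 H2-DMa UMIs without SP11, against 39.4 and 55.5 with it, where B cells had 6.56 and 6.41. The partner chain H2-DMb1 was at 0.639 to 1.92 CPM in tumour-gated cells. In barcodes under 200 genes of the SP11 libraries, H2-DMa had 1 UMI each beside 25 and 30 of Cd74, while tumour-gated cells had 166 and 151 beside 884 and 423.

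**Figure D5:**
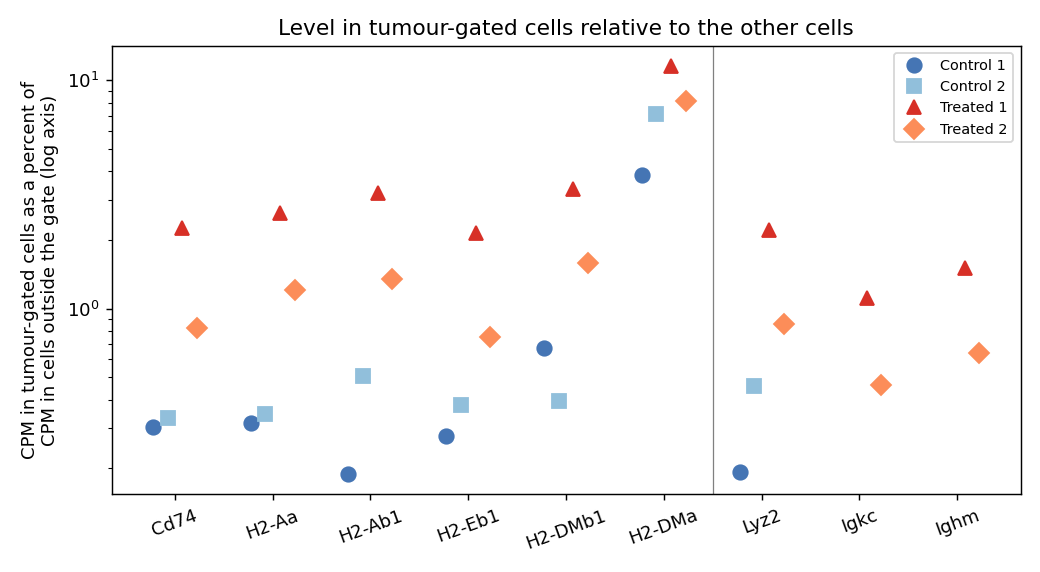
CPM in tumour-gated cells as a percent of CPM in the other kept cells of the library, on a log axis, for 6 class II genes and 3 genes made by other cells (right of the line), where pairs with under 4 UMIs in tumour cells are not drawn. The other kept cells include the mixed keratin barcodes, and percentages were lower in the SP11 libraries without them. H2-DMa lies at 3.87 to 11.5% in the 4 libraries, and Cd74 and Lyz2 lie at 0.192 to 2.27%.

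The order of tumour cells, T cells and barcodes under 200 genes in class II UMIs depended on the library and on the denominator. Leaving out tumour-gated cells with at least 5 class II UMIs, the others held 0.276, 0.453, 0.630 and 1.02 class II UMIs each from Control 1 to Treated 2, and without H2-DMa 0.150, 0.240, 0.499 and 0.753. T cells held 0 in both controls, 4.73 in Treated 1 (0.0714 without the barcode with 70) and 0.244 in Treated 2. Barcodes under 200 genes held 0, 0, 0.0808 and 0.126. They were not empty in Treated 1 and Treated 2, with median depths of 884 and 1582 UMIs, mostly of erythroid markers. Per UMI, all tumour-gated cells held 45.4, 32.9, 138 and 76.8 CPM, barcodes under 200 genes 0, 0, 89.1 and 82.4 CPM, and T cells 0, 0, 7109 and 256 CPM. Tumour-gated cells were thus above the barcodes under 200 genes per UMI in Treated 1 and below them in Treated 2. Erythroid RNA fills most of those barcodes and lowers their class II CPM, so this order is no measure of background. Per UMI, tumour-gated cells were below T cells in Treated 2. The 11 control T cells held 7142 and 933 UMIs in all in Control 1 and Control 2. That is too few to place their class II level above or below that of tumour-gated cells. Thinned to 500 UMIs per cell, 2.14% and 1.33% of tumour-gated cells in the controls and 4.39% and 2.78% in the SP11 libraries had a class II UMI. Unthinned shares were 23.2%, 37.1%, 47.5% and 64.2%. T cells of the SP11 libraries had shares of 13.3% (exact 95% interval 1.66 to 40.5%) and 11.5% (5.41 to 20.8%) after thinning, above the tumour cells in Treated 2 (1.57 to 4.55%). Thinning keeps 500 UMIs of a median of 19829 in tumour-gated cells and of 851 in T cells of Treated 2, so it takes more from the tumour cells, and the Treated 1 share of T cells (2 of 15) includes the barcode with 70 class II UMIs. No level of background was read from these shares. In control T cells the shares were 0 of 10 and 0 of 1 cells, which allows up to 30.0% in the former. The difference between the groups in tumour cells, 1.85 percentage points, had a two-sided exact permutation p of 0.333, the smallest that 2 against 2 libraries allow.

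Of 33 further genes of the pathway, 22 were tested in tumour-gated cells and 2 rose, the endosomal proteases Napsa (log2 change 2.72, SE 0.65, adjusted p = 0.030) and Ctss (1.35, SE 0.34, adjusted p = 0.047), which cut antigens and, for Ctss, the invariant chain. All 14 regulators of the list, among them the RFX and NF-Y subunits and the interferon-gamma receptor and its kinases, were tested there and edgeR called 0, with 2 at an unadjusted p under 0.05. In Ccl2-type cells 1 of 5 tested rose, the protease Ctsd (1.32, SE 0.24, adjusted p = 0.041). Over all kept cells 15 of 28 rose, led by Cd83 (4.27, SE 0.52), Napsa (4.14, SE 0.24), H2-DMb2 (3.77, SE 0.38), March1 (3.04, SE 0.35) and Cd80 (2.99, SE 0.50), and Ctsl fell by 0.50 (SE 0.13).

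The proteases of the endosome also differed between the antigen-presenting classes. Against B cells, Ccl2-type cells were higher in Ctsl (log2 difference 5.58, SE 0.37), Ctsd (4.32, SE 0.32), Ctsb (4.02, SE 0.28), Ctss (2.93, SE 0.30) and Lgmn (2.18, SE 0.81) and lower in Napsa (-3.13, SE 0.33) and the thiol reductase Ifi30 (-1.61, SE 0.23). Fn1-type cells were likewise higher in Ctsd (3.82, SE 0.32), Ctsl (3.82, SE 0.45), Ctsb (3.59, SE 0.28) and Ctss (2.58, SE 0.29) and lower in Napsa (-3.78, SE 0.28) and Ifi30 (SE 0.22, adjusted p = 1.8e-11). Dendritic-like cells were lower in Napsa (-2.48, SE 0.40) and Ifi30 (-1.12, SE 0.29) and higher in Jak2 (2.94, SE 0.73) and in Irf8 (3.57, SE 0.39), which gated them. Cd86 and Cd83, which help to activate T cells, were higher in B, dendritic-like, Fn1-type and Ccl2-type cells than in tumour cells.

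As a description over 17 class sums that share libraries, the mean log2(CPM + 1) of H2-Aa, H2-Ab1 and H2-Eb1 was most alike, outside the 9 genes, to that of Nrros (Pearson r = 0.969), Lyn (0.964), Tbc1d9 (0.956), Tyrobp (0.946) and Irf8 (0.943) among 11387 genes. Of the other members Cd74 had r = 0.990, H2-DMa 0.962, H2-DMb1 0.872 and Ciita 0.789.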

How the data were processed

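Raw UMI counts per gene and barcode were deposited by the authors for 4 libraries, made with Cell Ranger 7.1.0 per the file headers, without normalization; the submitters' processing notes name mm10, while the study's methods name hg38 for single-cell work. The study filtered DLA cells at 200 genes and 10% mitochondrial UMIs, and these limits were kept. Cells were gated by marker UMIs, and UMIs were summed per library and class. A tumour cell needed at least 5 keratin UMIs and at least 5 per 10000. It also needed under 3 UMIs of each of the B, T, Fn1-type and Ccl2-type sets and under 10 of the neutrophil genes. The dendritic gate genes Irf8 and Cst3 did not exclude a tumour cell. Sums went into edgeR 4.0.16 under R 4.3.3 (TMM scaling, filterByExpr, quasi-likelihood F test), p-values were adjusted by Benjamini-Hochberg over every gene tested and called at 0.05, and the library was a term between classes. SE is the log2 change divided by the root of F. Differences are on edgeR's log2 scale, and CPM are counts per 1000000 UMIs of a class sum. Shares of cells have exact Clopper-Pearson intervals at 95% with a limit of 3 counts for a share of 0 and exact permutation tests (scipy 1.17.1), and these intervals cover counting error only. Doublets were marked by Scrublet (scanpy 1.11.5) in 5.13%, 8.13%, 0.928% and 1.47% of cells and kept. On simulated data with 200 genes changed by 2 on the log2 scale, edgeR recovered 191 of 194 in tumour cells (11234 genes), 189 of 190 in Ccl2-type cells (478 genes) and 161 of 190 for B against tumour cells (2492 genes). The genes named are the 9 members, up to 5 called pathway genes per direction with the largest change, and reference genes of other cells. The 9 genes, lists and gates were chosen with earlier results of these data known, and the gate thresholds after viewing the marker UMIs. Alternatives were DESeq2 1.42.0, no filter, other cell limits, stricter gates, doublets left out, a replicate block and each library left out.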

Additional observations from a re-analysis of the deposited data

Results flagged for a closer look

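The change of Cd74 with SP11 differed between Ccl2-type myeloid cells and tumour-gated cells by a test of the difference itself. The log2 change was 1.66 in tumour-gated cells and -0.32 in Ccl2-type cells, and the fitted difference was -1.89 (SE 0.41, edgeR adjusted p = 0.0090), where 0.037% of 10812 genes were lower. For H2-Aa the difference was -1.52 (SE 0.44, adjusted p = 0.525) and for H2-Ab1 -1.45 (SE 0.45, adjusted p = 0.962). Both classes held RNA of other cells in the SP11 libraries, with Hbb-bs rising in each, and its part in this difference was not tested. DESeq2 did not call the Cd74 difference.

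Barcodes under 200 genes, which entered no comparison of cell classes, held class II UMIs in the SP11 libraries and none in the controls. Treated 1 had 35 class II UMIs in 433 such barcodes and Treated 2 had 48 in 380. The controls had 0 in 12 and 0 in 1 such barcodes, too few to compare. Their erythroid markers made up 807270 and 879130 CPM in Control 1 and Control 2 and 884660 and 894810 CPM in Treated 1 and Treated 2.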

How the results depend on the processing

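In tumour-gated cells 179 genes and 4 members were called with SP11. DESeq2 called 76 genes and 2 members, and leaving out doublets gave 2 members. Chosen after seeing the data, tumour cells with no B, T, Fn1-type, Ccl2-type or neutrophil marker UMI gave 65 genes. Cells without barcodes kept in another library, also chosen after seeing the data, gave 93. Leaving out 1 library gave 140 to 273 genes, the most without Control 1, and -0.025 to 0.25 for H2-DMa and -0.066 to 1.15 for H2-DMb1, which was -0.10 without doublets. In Ccl2-type cells the 7 genes became 12 without a filter and 6 to 20 without 1 library, the most without Treated 2. Over all kept cells 1305 genes became 759 with DESeq2. Against tumour cells, no filter gave 3795 genes for B, 1821 for dendritic-like, 4447 for Fn1-type, 3527 for Ccl2-type and 2375 for T cells, where more genes were tested, and stricter gates 3193, 750 and 3466 for the first 3. Without 1 library the counts were 595 to 2375, 393 to 1586, 805 to 2592, 841 to 2198 and 428 to 1800 in the same order, each lowest without Treated 2. For T cells the 5 members became 0 with 500 genes, 1 with stricter gates and 1 to 5 without 1 library, and H2-Aa turned to -7.84, -8.35 and, over the libraries left out, -7.33 to 5.17, the lowest without Treated 1, where T cells had 0 UMIs of it.

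Against B cells, dendritic-like calls fell from 3 members to 1 without a filter and 1 with stricter gates (205 genes in place of 346), and to 0 to 3 members and 65 to 395 genes without 1 library. Fn1-type calls went from 3 members to 1 with DESeq2, 5 without a filter and 6 with stricter gates, and their genes to 272 to 1208 without 1 library. Ccl2-type calls went from 2 members to 1 with DESeq2 and to 0 to 4 members and 260 to 946 genes without 1 library. T-cell genes went from 348 to 201 with DESeq2, 224 with 500 genes and 95 to 362 without 1 library. The difference between Ccl2-type and tumour-gated cells went from 6 genes and 1 member to 0 and 0 with DESeq2 and to 0 to 17 genes and 0 to 3 members without 1 library. The differences in shares of cells turned to 0.652 points in Ccl2-type cells thinned to 1000 UMIs, and at 2 or more UMIs to -0.0052 for Cd74 in tumour-gated and 10.7 for H2-Aa in Ccl2-type cells. With the B, dendritic-like and myeloid gates alone as the other cells, the mean SP11 percentages fell to 0.498 for Cd74, 3.63 for H2-DMa and 0.229 for Igkc, and without keratin-positive barcodes H2-DMa fell to 4.66, a choice made after seeing the data. Of the values of single members, 559 kept their direction and side of the threshold, 43 lost and 2 gained their call and 7 reversed. The cause of these changes was not tested unless named. A lone library was assumed to vary like the others.

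The labels number replicates alike in both groups, and with the replicate block 745 genes were called in tumour-gated cells, 12 in Ccl2-type cells and 2220 over all kept cells, with 4 members still called in tumour-gated cells. The paper describes 2 independent sets of controls and treated samples, and it does not say whether the numbers mark the sets. With 2 pairs it cannot be told whether same-numbered samples share more than a number (correlations of their deviations 0.203, 0.120 and 0.154).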
